A study of Mus musculus with 3 samples.

Results

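The genes described here build the moving part of a motile cilium: 42 genes whose products form the radial spokes, the central pair apparatus, the ruler and links between doublets, the docking sites of the outer dynein arms, their assembly machinery and the tektins and other proteins inside the doublets, with 5 further cilium- or sperm-linked genes and without the dynein chains. They were taken by symbol from the 27998 genes of the deposited matrices, where 41 symbols were found, and Cfap65 was matched by its Ensembl ID under another symbol. The cells came from the subventricular zone, the neurogenic layer in the wall of the lateral ventricle. The labels give 5 adult mice and do not state pooling. The tissue was dissociated with papain, and the cells were sorted before 10x Chromium 3′ v2 capture. All groups carried the same alleles: aSMACreERt2::Rosa26-tdTomato mice crossed to B6;129S-Sox2tm2Hoch/J mice, on a mixed C57/Bl6 and 129S1SvlmJ background. In them a tamoxifen-dependent Cre driven by the smooth muscle actin promoter switches on tdTomato, and a Sox2 allele carries GFP. The tdTomato-positive, GFP-positive gate gave 1 library, and the gate for cells with GFP but no tdTomato gave 2. The age in weeks and the tamoxifen schedule were not given in the sources used here, and nothing in the labels ties a library to its own animals. Each p-value between gates thus reflects the spread between these libraries alone. Those between cell classes reflect the spread left over 18 sums of library and class once library differences were taken out (7 residual degrees of freedom). Both kinds of spread may be technical.

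A motile cilium is carried by an axoneme, a ring of doublet microtubules around a central pair of singlets. Dynein arms on the doublets make them slide, radial spokes reach inwards to the central pair and pass on the signals that pattern the beat, and nexin links turn sliding into bending. In the brain these structures belong to the multiciliated ependymal cells that line the ventricles and move cerebrospinal fluid. Their genes are switched on late, when a cell leaves the cycle and builds its tuft of cilia, by regulators that include Foxj1 and the RFX factors. RFX proteins bind the X-box, a palindromic element near the start of many ciliary genes.

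That element was searched for as a sequence feature that the choice of genes did not use. RefSeq promoters (build GRCm38.p6, 250 bases before to 50 after each start) were matched for 33 of the 42 genes, 39 promoters in all. The X-box, searched as GTNNCC, then any 3 bases, then GNAAC on either strand, lay in the promoters of 12 of the 33 genes (36.4%), against 673 of all 27025 genes with a promoter in the table (2.49%). Counted by promoter, the shares were 30.8% and 2.17%. In 10 genes the match lay wholly before the start, with its first base 15 to 160 bases before it, and those 10 stretches are shown because they let the element be compared across spoke, central pair, link, docking and doublet genes. The capitals mark the X-box and the letters run 5′ to 3′ along the strand of the gene.
Cfap206, a radial spoke gene, minus strand of chr4:34730207-34730244: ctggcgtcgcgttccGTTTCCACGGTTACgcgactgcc
Hydin, central pair, plus strand of chr8:110266941-110266976: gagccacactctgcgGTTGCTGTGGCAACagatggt
Spag16, central pair, plus strand of chr1:69826852-69826895: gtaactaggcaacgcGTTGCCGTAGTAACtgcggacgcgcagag
Iqca, nexin link, minus strand of chr1:90153508-90153551: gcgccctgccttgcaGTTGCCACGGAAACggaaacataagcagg
Cfap44, dynein tether, plus strand of chr16:44394757-44394798: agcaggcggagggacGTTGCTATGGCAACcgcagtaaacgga
Ccdc114, outer arm docking, plus strand of chr7:45924185-45924214: ccttattggccccttGTCTCCCCAGTAACc
Ccdc151, outer arm docking, minus strand of chr9:22002640-22002683: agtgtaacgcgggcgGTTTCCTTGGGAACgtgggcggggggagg
Tekt4, a tektin, plus strand of chr17:25471415-25471458: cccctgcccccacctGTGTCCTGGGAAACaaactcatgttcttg
Cfap45, doublet interior, plus strand of chr1:172521096-172521129: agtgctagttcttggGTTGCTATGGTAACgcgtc
Pifo, cilium-linked, minus strand of chr3:106001540-106001583: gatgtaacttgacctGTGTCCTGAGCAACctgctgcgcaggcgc
The matches in Spag6l and Zmynd10 did not lie wholly before the start. The shorter motif GTTGCCA, which overlaps the X-box, lay in the promoters of 30.3% of the matched members and 5.02% of all genes. The forkhead letters TGTTTAC were found in 6.06% of members and 4.05% of all genes, and CCAAT in 45.5% and 41.1%. Both strands were searched for each motif. These matches describe letters in a window and say nothing of what is bound there.

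After filtering, the tdTomato-positive library held 252 cells and the tdTomato-negative libraries 1 and 2 held 256 and 1121 cells, with medians of 2535, 2640 and 2401 UMIs per cell. The median share of mitochondrial UMIs was 8.27% in the tdTomato-positive library, against 3.22% and 3.38% in the tdTomato-negative ones. The tdTomato-positive library shared 0 and 1 cell barcodes with tdTomato-negative libraries 1 and 2, which shared 2 with each other. Cells were clustered without any of the 42 genes and named from marker genes. The ependymal-like class held 234 cells, which were 177 cells (70.2%) of the tdTomato-positive library and 12 (4.69%) and 45 (4.01%) of the tdTomato-negative ones. The sort gates can set these shares. All 11 ependymal markers were detected in the class in each library, Foxj1 at 481 CPM (UMIs scaled to the usual common total of counts per library and class) in the tdTomato-positive library, against 400.4 and 402.7 CPM in the tdTomato-negative ones. The other classes compared were astrocyte-like (278 cells, from a cluster led by Slc7a10 and Htra1 and one led by Gfap, Id3 and Thbs4), transit-amplifying-like (143 dividing cells, none of them tdTomato-positive) and neuroblast-like (352 cells).

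In ependymal-like cells the 42 genes together took about 1 UMI in 100. Their summed level was 9890 CPM in the tdTomato-positive library (95% interval 9638 to 10148), against 10633 CPM (9701 to 11631) and 10436 CPM (9961 to 10928) in the tdTomato-negative libraries. These and all other intervals cover counting error only. All 42 genes had UMIs in ependymal-like cells, and the share of all their UMIs that fell in this class ran from 58.5% for Mns1 to 98.4% for Armc4. The UMIs tag the 3′ end of each molecule, so CPM values were not divided by transcript length, and levels of different genes compare tagged molecules only.

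**Figure D1:**
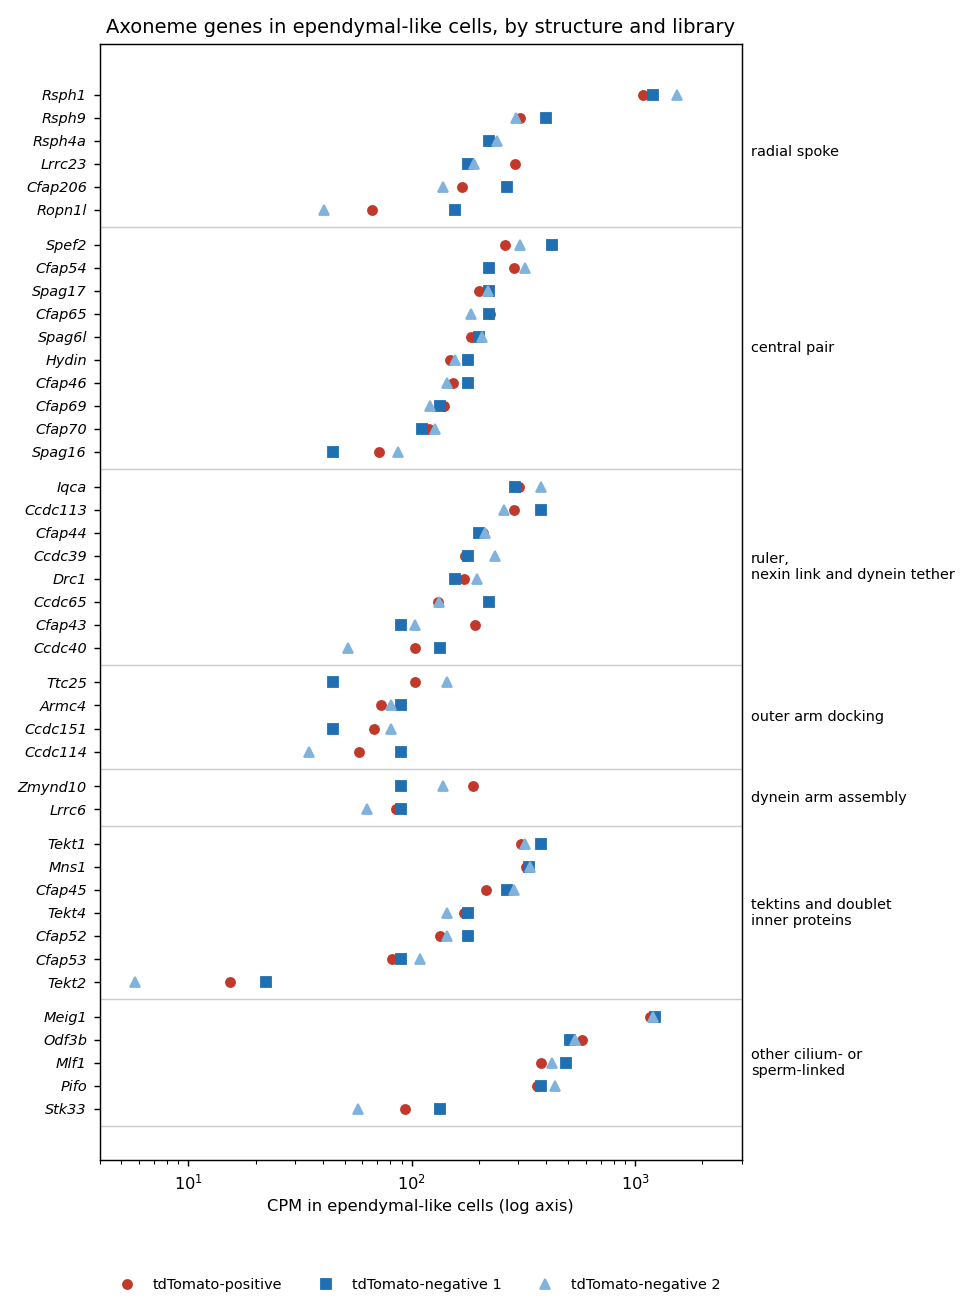
Level of each of the 42 genes in ependymal-like cells, in CPM on a log axis, by structure; circles are the tdTomato-positive library, squares and triangles the tdTomato-negative libraries 1 and 2. Rsph1 and Meig1 lay above 1000 CPM in all 3 libraries, and Tekt2 lay between 5.75 and 22.2 CPM.

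The radial spoke genes were led by Rsph1, a spoke head protein. Rsph1 (chromosome 17, 31255019 to 31277383, minus strand, GRCm38) stood at 1085 CPM in the tdTomato-positive library, against 1201 and 1542 CPM in the tdTomato-negative ones, and 87.2% of ependymal-like cells had a UMI of it. The other spoke head genes were lower in every library: Rsph9 (chromosome 17, 46122035 to 46144216, minus strand) stood at 306 CPM in the tdTomato-positive library, against 400.4 and 293 CPM in the tdTomato-negative ones, and Rsph4a stood at 223, 222 and 242 CPM. Rsph1 was thus 3.54-fold above Rsph9 in the tdTomato-positive library, against 3.0-fold and 5.25-fold in the tdTomato-negative ones. Ropn1l, a spoke protein shared with the sperm fibrous sheath, was the lowest of the 6, at 66.3 CPM in the tdTomato-positive library, against 156 and 40.3 CPM (7 UMIs each) in the tdTomato-negative ones.

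Among the 10 central pair genes, Spef2, a subunit of a central pair projection, had the highest mean over the 3 libraries, with 260.1 CPM in the tdTomato-positive library, against 423 and 305 CPM in the tdTomato-negative ones. Cfap54, also of the central pair, was above it in all but tdTomato-negative library 1, at 286 CPM in the tdTomato-positive library, against 222 and 322 CPM in the tdTomato-negative ones. Spag16 had the lowest mean, at 71.4 CPM, against 44.5 and 86.3 CPM. Hydin, the giant protein of a central pair projection whose loss causes hydrocephalus in mice, was at 148 CPM in the tdTomato-positive library, against 178 and 155 CPM in the tdTomato-negative ones. Spag17 and Spag6l, also of the central pair, were near 200 CPM in all 3 libraries. Spag6l has a close paralog, Spag6, and reads of one may have been counted for the other or dropped.

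Among the ruler, nexin link and tether genes, Iqca, a subunit of the nexin-dynein regulatory complex, had the highest mean over the 3 libraries, at 303 CPM in the tdTomato-positive library, against 289 and 379.7 CPM in the tdTomato-negative ones. Ccdc39 and Ccdc40 form one molecular ruler that sets where spokes and inner arms attach. Over the 3 libraries Ccdc39 had 151 UMIs in ependymal-like cells and Ccdc40 had 76. Ccdc39 stood at 173 CPM in the tdTomato-positive library, against 178 and 236 CPM in the tdTomato-negative ones, and Ccdc40, with the lowest mean of the 8, at 104 CPM against 133 and 51.8 CPM. In tdTomato-negative library 1 Ccdc113 (378 CPM) was above Iqca and Cfap43 (89.0 CPM) below Ccdc40. The ratio of Ccdc39 to Ccdc40 was 1.67 in the tdTomato-positive library, against 1.33 and 4.56 in the tdTomato-negative ones. The values of tdTomato-negative library 1 rest on 12 ependymal-like cells, too few to rank genes this close. Drc1 and Ccdc65, of the regulatory complex, and Cfap44, of the inner arm tether, lay between 131 and 222 CPM in every library.

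By the mean of the 3 libraries, Ttc25 was the highest docking gene at 104 CPM in the tdTomato-positive library, against 44.5 and 144 CPM in the tdTomato-negative ones, and Ccdc114 the lowest at 57.8 CPM against 89.0 and 34.5 CPM. In tdTomato-negative library 1, with 12 ependymal-like cells, their order was turned round. Zmynd10 and Lrrc6, which act in the cytoplasm while dynein arms are put together, stood at 189 and 85.0 CPM in the tdTomato-positive library. In the tdTomato-negative libraries Zmynd10 was at 89.0 and 138 CPM and Lrrc6 at 89.0 and 63.3 CPM.

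Inside the doublets, Tekt1, a filament protein, had the highest mean over the 3 libraries, with 309 CPM in the tdTomato-positive library, against 378 and 322 CPM in the tdTomato-negative ones. Tekt2 was the lowest of all 42, with 9, 1 and 1 UMIs (15.3 CPM in the tdTomato-positive library, 22.2 and 5.75 CPM in the tdTomato-negative ones). Mns1, another doublet protein, was at 323 CPM against 334 and 339 CPM, above Tekt1 in all but tdTomato-negative library 1. Of the remaining 5 genes, Meig1, needed to build the sperm tail, was at a level like that of Rsph1, 1166 CPM in the tdTomato-positive library, against 1224 and 1202 CPM in the tdTomato-negative ones. Odf3b, an outer dense fibre family member, was at 576 CPM against 512 and 535 CPM, and Stk33, a kinase gene, was the lowest at 93.5 CPM against 133 and 57.5 CPM.

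Most structures took similar shares in the 3 libraries, and those of the assembly genes varied most relative to their mean. The assembly genes are 2 and had the lowest mean summed level (218 CPM), and counting error was not set apart from this spread. Of the member UMIs in ependymal-like cells, radial spoke genes took 21.6% in the tdTomato-positive library, against 22.8% and 23.4% in the tdTomato-negative ones. Central pair genes took 18.03%, against 18.2% and 17.9%. The ruler, link and tether genes took 15.8%, against 15.5% and 15.05%, and the doublet proteins 12.6%, against 13.6% and 13.0%. Docking genes took 3.06%, against 2.51% and 3.25%, and assembly genes 2.77%, against 1.67% and 1.93%. The 5 other cilium- or sperm-linked genes took 26.04%, against 25.7% and 25.5%. Across the 42 genes, the ranks of the tdTomato-positive library followed those of tdTomato-negative libraries 1 and 2 with a Spearman rho of 0.874 and 0.936, and the tdTomato-negative libraries followed each other with 0.878; genes are not independent replicates, and the 12 cells of library 1 limit its precision.

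Cell by cell the module was general in the class. Each of the 234 ependymal-like cells had UMIs of at least 2 of the genes, and the medians were 18 genes in the tdTomato-positive library, against 22.5 and 21 in the tdTomato-negative ones, with medians of 3284, 4069 and 4304 UMIs per cell. Thinned to 1000 UMIs per cell, which left out 18 ependymal-like cells, the medians were 8, 6 and 8 genes. In 4 bins of depth from the shallowest cells to the deepest (59, 58, 58 and 59 cells), the median number detected ran through 10, 17, 22 and 25 genes while the summed level was 9719, 10237, 10053 and 10031 CPM. The shallowest bin had a median of 17.5% mitochondrial UMIs, against 8.05% in the deepest. At a finer clustering resolution the class fell into 187 cells with a median of 4207 UMIs and 8.05% mitochondrial UMIs, and 47 cells with 1362 UMIs and 18.5%, and the genes summed to 10144 and 9045 CPM in them.

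**Figure D2:**
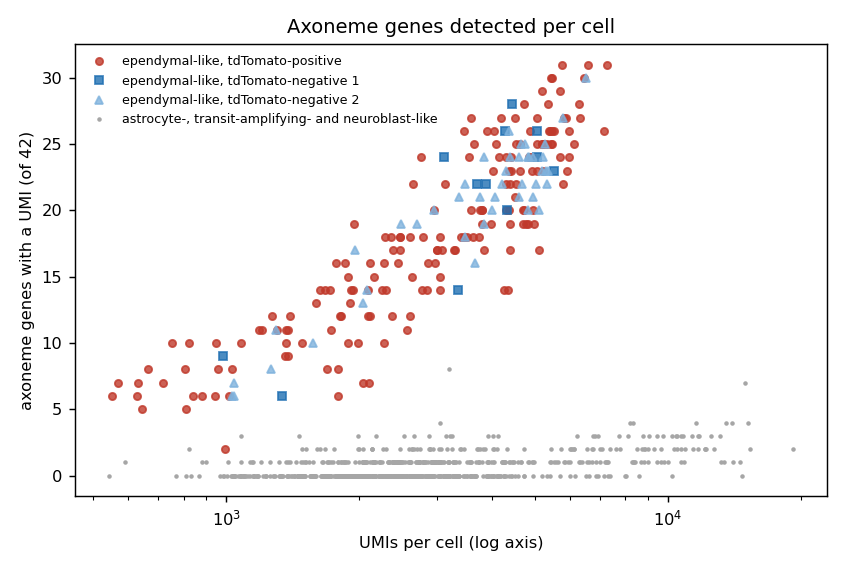
Number of the 42 genes with a UMI in each cell, against the UMIs of the cell on a log axis; coloured points are ependymal-like cells by library and grey points are astrocyte-, transit-amplifying- and neuroblast-like cells. Ependymal-like cells had between 2 and 31 of the genes, and the grey cells at most 8 at any depth.

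The first comparison asked whether ependymal-like cells inside and outside the tdTomato gate differ in their axoneme genes. No difference passed the test. The edgeR quasi-likelihood test on summed UMIs called 0 of the 41 genes tested higher and 0 lower (Tekt2 was too low to be tested). Over all 4098 genes tested it called 0.293%, with 0.171% higher and 0.122% lower. DESeq2 called 0 genes of any kind. The members' median log2 fold change, tdTomato-positive over tdTomato-negative, was 0.01, with a range of -0.31 to 1.02, and the median of all genes tested was 0.00. At an unadjusted p under 0.05 there were 2 members, Cfap43 and Lrrc23, and 133 of all 4098 genes. Cfap43, of the inner arm tether, had the largest difference: 192 CPM in the tdTomato-positive library, against 89.0 and 103.6 CPM (4 and 18 UMIs) in the tdTomato-negative ones, a log2 fold change of 1.02 (SE 0.41, edgeR adjusted p = 0.999). Its partner Cfap44 was at 207, 200.2 and 213 CPM. Gsto1 and Gsto2 overlap Cfap43 on the other strand, and Gsto2 had 25.5 CPM (15 UMIs), against 0 and 23.0 CPM (0 and 4 UMIs), with Gsto1 at 2 UMIs against 0 and 3. Lrrc23, a spoke head gene, stood at 291 CPM, against 178 and 190 CPM (log2 0.72, SE 0.35, edgeR adjusted p = 0.999).

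Among the abundant genes, Meig1 had a log2 fold change of 0.05 (SE 0.30) and Rsph1 one of -0.27 (SE 0.30), with the tdTomato-positive value of Rsph1 below both tdTomato-negative values. For a scarce gene such as Ccdc114 the SE was 0.69, so a difference of 2-fold was not detectable at this depth. Cfap43, which is less scarce, was not called either at a log2 fold change of 1.02. The lack of calls therefore does not exclude differences of 2-fold in the members. The gate comparison rests on 1 library against 2 and 1 residual degree of freedom. The markers of the choroid plexus, another epithelium of the ventricles, summed to 525 CPM in the ependymal-like class of the tdTomato-positive library, against 178 and 305 CPM in the tdTomato-negative ones; 6 of the 8 were detected in the tdTomato-positive library, against 3 and 5 in the tdTomato-negative ones. Ttr was at 168 CPM against 0 and 0, and Otx2 at 15.3 CPM against 22.2 and 34.5 CPM. Of the other lists, 9 oligodendrocyte markers summed to 496 CPM in the tdTomato-positive library (1 of them at 0), against 111 and 115 CPM (8 and 3 at 0). The 16 transit-amplifying markers summed to 177 CPM (5 at 0), against 690 and 477 CPM (8 and 3 at 0). The part of these cells in the values was not tested.

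Over all cells of a library, all 42 genes were called higher in the tdTomato-positive library (edgeR, adjusted p under 0.05), where 22.9% of the 10944 genes tested were called higher and 19% lower. The summed level was 8221 CPM in the tdTomato-positive library, against 768 and 689 CPM in the tdTomato-negative ones. The members' median log2 fold change was 3.68, with a range of 2.32 to 4.32 and a median of -0.07 over all genes tested; set against each tdTomato-negative library alone the medians were 3.43 and 3.70. In such sums more ependymal cells and more RNA per cell cannot be told apart, and the shares of ependymal-like cells, 70.2% against 4.69% and 4.01%, moved with them. Mns1 had the smallest difference, at 265 CPM in the tdTomato-positive library, against 57.6 CPM over the tdTomato-negative ones (log2 2.32, SE 0.30, edgeR adjusted p = 2.1e-13).

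**Figure D3:**
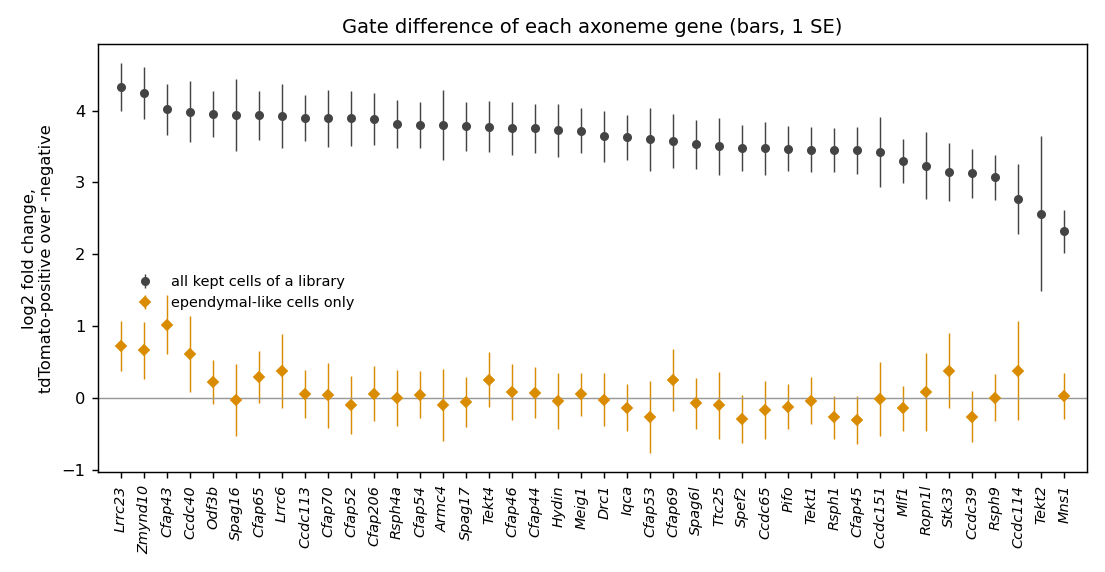
Log2 fold change of each gene, tdTomato-positive over tdTomato-negative, from sums over all kept cells (circles) and over ependymal-like cells only (diamonds), with bars of 1 SE. Over all cells every gene lay between 2.32 and 4.32; in ependymal-like cells the values ran from -0.31 to 1.02.

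Between classes, the genes marked ependymal-like cells. The 41 genes that passed the filter on low counts (all but Tekt2) were called higher in ependymal-like than in astrocyte-like cells, where edgeR called 18.1% of 3838 genes higher. The same 41 were called higher against transit-amplifying-like cells (25.1% of all genes) and against neuroblast-like cells (26% of all genes). A gene could pass the filter through the ependymal-like cells alone. The markers that entered the clustering and named the class included cilium genes such as Foxj1 and Dynlrb2. The members vary together with these markers, so the counts describe the classes and are no separate support for them. In ependymal-like cells Rsph1 had 1085 CPM inside the tdTomato gate and 1201 and 1542 CPM outside it. In astrocyte-like cells it had 124 CPM (4 UMIs), 31.3 CPM and 14.9 CPM in the same order, a log2 fold change of 5.65 (SE 0.34, adjusted p = 8.7e-60). Meig1 had a log2 fold change of 5.53 (SE 0.34), with 1166, 1224 and 1202 CPM in ependymal-like cells and 93.3 (3 UMIs), 41.8 and 13.0 CPM in astrocyte-like cells. No library overlapped between the classes for either gene.

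The contrast was steep for genes of every structure. Iqca had 257 UMIs in ependymal-like cells and 1 in transit-amplifying-like cells, a log2 ratio with a counting interval of 5.98 to 13.8. Spef2 had 225 UMIs in ependymal-like and 1 in neuroblast-like cells (5.42 to 13.2). Spag16 had 59 UMIs in ependymal-like cells and 0 in transit-amplifying-like and neuroblast-like cells. Set against a floor of 3 UMIs over the class, it was higher by at least 4.76 and 4.39 on the log2 scale. Lrrc6 had 65 UMIs, against 0 in transit-amplifying-like cells, and was higher by at least 4.90. Ttc25 had 88 UMIs in ependymal-like cells, against 2, 1 and 1 in astrocyte-, transit-amplifying- and neuroblast-like cells. The classes set against Iqca, Spef2 and Lrrc6 above were not those with the highest other level. By CPM over the highest other class of at least 100 cells, Iqca stood at 54.9 (5 UMIs in neuroblast-like cells). Spef2 stood at 30.9 (6 UMIs in astrocyte-like cells) and Lrrc6 at 34.7 (2 UMIs in neuroblast-like cells).

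Some genes were less sharply divided. The ratio of the ependymal-like CPM to the highest CPM in another class of at least 100 cells was smallest for Tekt2 (2.33, on 11 and 4 UMIs), Mns1 (2.69), Ropn1l (6.24), Rsph9 (8.93), Ccdc114 (9.07) and Ccdc39 (9.58), and it ran up to 114 for Cfap206. Ropn1l against astrocyte-like cells (log2 2.17, SE 0.76, edgeR adjusted p = 0.0176) was no longer called by DESeq2 (adjusted p = 0.196) or without either tdTomato-negative library (adjusted p = 0.382 without library 1 and 0.267 without library 2). Ccdc114 against astrocyte-like cells (log2 2.70, SE 0.90, adjusted p = 0.0112) was not called by DESeq2 (adjusted p = 0.0676), with cells of at least 500 genes and at most 10% mitochondrial UMIs (0.0692), without tdTomato-negative library 1 (0.165) or without the tdTomato-positive library (0.0577).

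**Figure D4:**
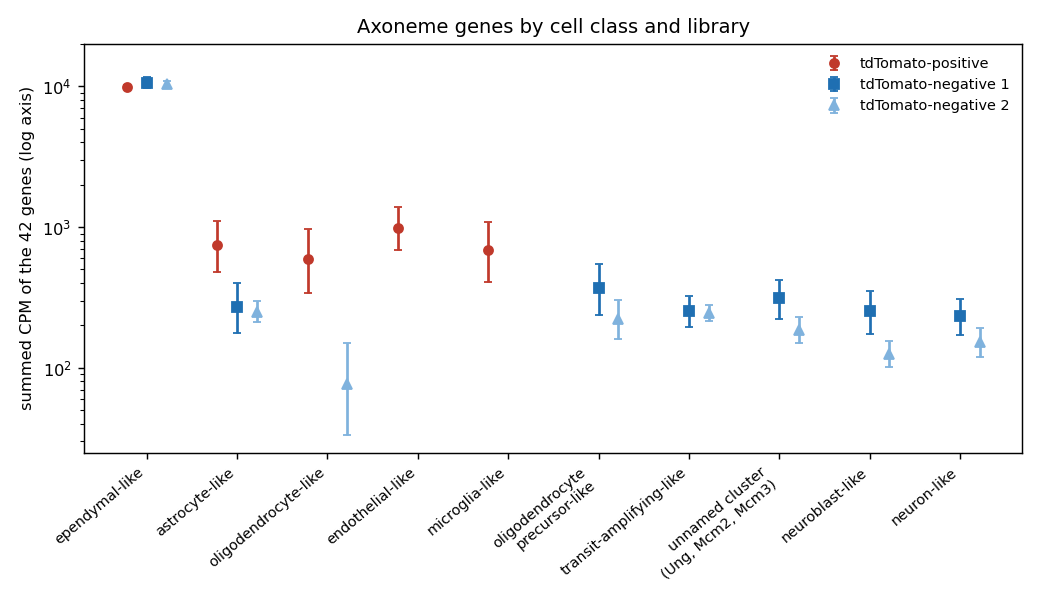
Summed level of the 42 genes, in CPM on a log axis, in each class and library with at least 10 cells; bars are exact 95% Poisson intervals of the UMIs. Ependymal-like cells lay between 9890 and 10633 CPM; the other classes lay between 594 and 991 CPM in the tdTomato-positive library and between 76.6 and 370 CPM in the tdTomato-negative ones.

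Outside the ependymal-like class the genes were at a low level that went with the library. Cells that were not ependymal-like had 787 CPM of the 42 genes in the tdTomato-positive library (104 UMIs, 643 to 954), against 264 CPM (233 UMIs, 232 to 301) and 193 CPM (658 UMIs, 178 to 208) in the tdTomato-negative ones. In the tdTomato-positive library 31 of the 42 genes were seen outside ependymal-like cells, and its endothelial-like and microglia-like cells, which have no motile cilia, held 991 and 689 CPM. The endothelial-like value rests on 34 UMIs in 20 cells and was uneven: 35% of the cells had none of the genes, and the most in a cell was 9. The microglia-like value rests on 18 UMIs in 14 cells, with at most 3 of the genes in a cell. Astrocyte-like cells held 747 CPM of the genes in the tdTomato-positive library, against 272 and 251 CPM in the tdTomato-negative ones. The summed ependymal markers moved with them in astrocyte-like cells: 1431 CPM in the tdTomato-positive library, against 345 and 260.4 CPM. Their part in these low levels was not tested. The 2 most abundant genes, Rsph1 and Meig1, took 29.8% of these member UMIs outside ependymal-like cells in the tdTomato-positive library, against 22.8% within them. In the tdTomato-negative libraries they took 18.03% and 15.7% outside, against 22.8% and 26.3% within. Mns1 alone took 11.2% and 24.3% of the member UMIs outside in these libraries, against 0.96% in the tdTomato-positive one. A larger share of Mns1 lowers the shares of all other genes by arithmetic. Its part in the lower shares of Rsph1 and Meig1 was not tested.

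Between transit-amplifying-like and astrocyte-like cells the module as a whole was low in both, at 254 and 246 CPM in transit-amplifying-like cells of tdTomato-negative libraries 1 and 2, and at 747, 272 and 251 CPM in astrocyte-like cells of the tdTomato-positive and both tdTomato-negative libraries. edgeR called 2 of 41 genes higher and 5 lower in transit-amplifying-like cells, where 20.1% and 22.1% of 3838 genes were called higher and lower. The members' median log2 fold change was -1.42 (-1.48 with genes at 0 UMIs set to their bound, and -0.05 over all genes tested), with 5 genes at 0 and 20 at 1 to 3 UMIs in astrocyte-like cells.

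Mns1 stood out. Mns1 (chromosome 9, 72438011 to 72462025, plus strand), named for a protein of meiotic nuclei and now placed inside the doublets, had 74.9 and 134 CPM in transit-amplifying-like cells of tdTomato-negative libraries 1 and 2 (18 and 117 UMIs). In astrocyte-like cells it had 0, 10.4 and 18.6 CPM (0, 1 and 10 UMIs), the first in tdTomato-positive cells, the others in tdTomato-negative libraries 1 and 2. The log2 fold change was 2.68 (SE 0.45, edgeR adjusted p = 2.1e-08), and the call held under every alternative run. UMIs of Mns1 were found in 50.3% of transit-amplifying-like cells (95% interval 41.9% to 58.8%), at a median depth of 7222 UMIs, and in 3.96% of astrocyte-like cells (1.99% to 6.97%), at 2352 UMIs. With every cell thinned to 1000 UMIs, 11.2% of transit-amplifying-like cells (0% and 13.7% in tdTomato-negative libraries 1 and 2) and 1.498% of astrocyte-like cells had one. It supplied 135 of the 275 member UMIs of transit-amplifying-like cells.

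The level of Mns1 in transit-amplifying-like cells was still below that of ependymal-like cells, where it was 323, 334 and 339 CPM: the log2 fold change, ependymal-like over transit-amplifying-like, was 1.55 (SE 0.31, edgeR adjusted p = 5.3e-06). Without tdTomato-negative library 1 it was 1.20 and was not called (adjusted p = 0.169). In the same dividing cells Rsph1 had 12.5 and 17.2 CPM and Meig1 20.8 and 11.5 CPM, against 37.1 and 13.8 CPM and 14.8 and 20.7 CPM in neuroblast-like cells of the same libraries. The unnamed cluster led by Ung, Mcm2 and Mcm3, genes of DNA replication, had Mns1 at 31.1 and 45.2 CPM in the tdTomato-negative libraries. Neuroblast-like cells had it at 14.8 and 5.52 CPM (2 and 4 UMIs), and the 358 neuron-like cells had 0 UMIs of it, which allows up to 4.39 CPM. That cluster is named from 1 marker, Meg3, among its 10 leading genes, and was led by Prokr2 and Pbx3. At resolution 2.0 the dividing cells fell into a cluster led by the mitotic genes Ccnb1 and Ube2c, with Mns1 at 80.5 and 146 CPM, and one led by Hist1h2ap and Tk1, genes of S phase, with 62.9 and 120 CPM. By UMIs over both libraries the next gene of the module in transit-amplifying-like cells was Mlf1, a gene linked to myeloid leukaemia and expressed in ciliated cells, with 29.1 and 14.9 CPM (7 and 13 UMIs; below Rsph1 in tdTomato-negative library 2), against 0 and 5.58 CPM (0 and 3 UMIs) in astrocyte-like cells of the same libraries.

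Tex9 overlaps Mns1 on the other strand, and whether counting used strand is not given in the sources used here. Tex9 had 50.0 and 36.7 CPM in transit-amplifying-like cells of the tdTomato-negative libraries, against 52.2 and 29.8 CPM in astrocyte-like cells of the same libraries. The Tex9 values of these classes overlapped, and those of Mns1 did not. Tex9 had 111 and 74.8 CPM in ependymal-like cells and 22.2 and 11.0 CPM in neuroblast-like cells of the same libraries, so over the ependymal-, transit-amplifying- and neuroblast-like classes it had the order of Mns1. Its part in the Mns1 values was not tested.

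**Figure D5:**
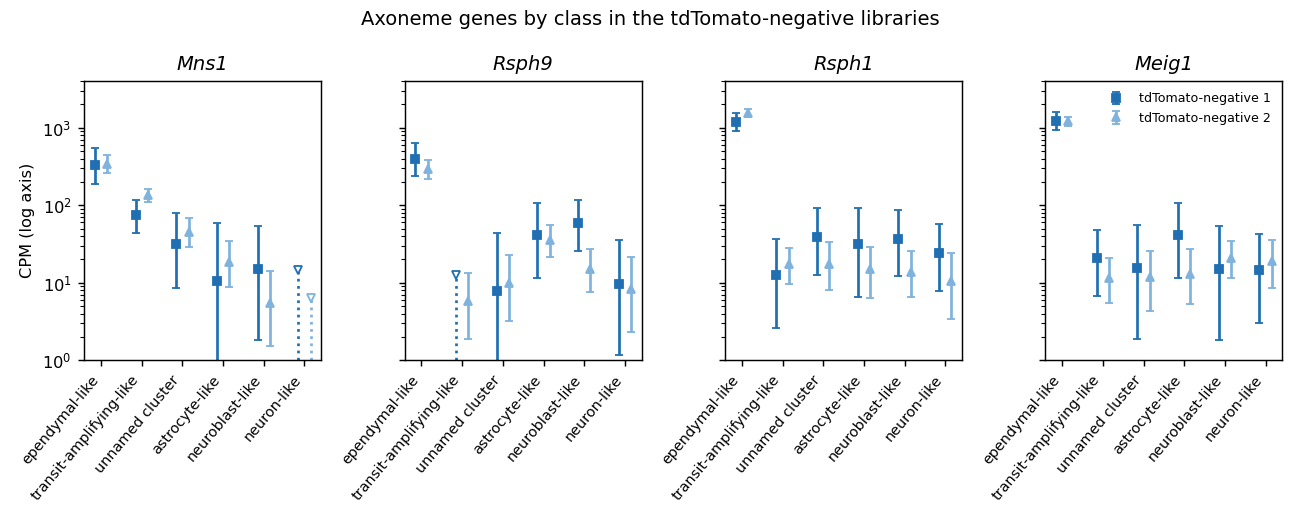
Mns1, Rsph9, Rsph1 and Meig1 in the tdTomato-negative libraries by class, in CPM on a log axis, with exact 95% Poisson intervals of the UMIs; open triangles mark 3 UMIs where none was seen. Mns1 stood at 74.9 and 134 CPM in transit-amplifying-like cells and Rsph9 at 41.8 and 35.3 CPM in astrocyte-like cells; Rsph1 and Meig1 stayed between 10.5 and 41.8 CPM outside ependymal-like cells.

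Rsph9 showed the opposite pattern. It had 0 and 5.74 CPM (0 and 5 UMIs) in transit-amplifying-like cells of tdTomato-negative libraries 1 and 2, against 41.8 and 35.3 CPM (4 and 19 UMIs) in astrocyte-like cells of the same libraries and 0 UMIs in the 16 tdTomato-positive astrocyte-like cells. The log2 fold change, transit-amplifying-like over astrocyte-like, was -2.99 (SE 0.66, edgeR adjusted p = 3.5e-05), and it held under every alternative run. Within the astrocyte-like class Rsph9 lay above Rsph1 in tdTomato-negative library 2, where Rsph1 had 14.9 CPM (8 UMIs). Library 1 had 4 UMIs of Rsph9 and 3 of Rsph1 (31.3 CPM), too few to rank them. The tdTomato-positive cells of the class had 0 UMIs of Rsph9 and 2 of Rsph1 in each cluster (14 and 2 cells), also too few to rank them. Within the ependymal-like class Rsph1 was the higher by 3.0-fold and 5.25-fold in tdTomato-negative libraries 1 and 2. The cluster led by Gfap, Id3 and Thbs4 had the higher level, with Rsph9 at 171.5 and 90.8 CPM (4 and 10 UMIs; 46.7 to 439 and 43.5 to 167 CPM) and Rsph1 at 0 UMIs in both tdTomato-negative libraries. The cluster led by Slc7a10 had 0 and 21.0 CPM of Rsph9 (0 and 9 UMIs) and 41.5 and 18.7 CPM of Rsph1. The genes of the module together, Rsph9 among them, were also higher in the Gfap-led cluster. They summed to 472 and 418 CPM (11 and 46 UMIs) there in tdTomato-negative libraries 1 and 2. In the Slc7a10-led cluster they summed to 207 and 208 CPM (15 and 89 UMIs). The Rsph9 UMIs are part of these sums, and Rsph1 did not follow them in the tdTomato-negative libraries. The split was looked up after the values were seen and was not tested. Whether it is particular to Rsph9 was not tested either. Mrps18a, a mitochondrial ribosome gene that overlaps Rsph9 on the other strand, had 91.6 and 75.7 CPM in transit-amplifying-like cells, against 104.5 and 89.3 CPM in astrocyte-like cells of the same libraries. Rsph9 was also seen in neuroblast-like cells, at 59.3 and 15.2 CPM (8 and 11 UMIs).

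The other 5 calls rest on few UMIs. Cfap43 was called higher in transit-amplifying-like cells on 9 UMIs against 0 in astrocyte-like cells, higher by at least 0.84 on the log2 scale (edgeR adjusted p = 0.0284). Gsto1, which overlaps it on the other strand, had 29.1 and 21.8 CPM in transit-amplifying-like cells, against 31.3 and 37.2 CPM in astrocyte-like cells of the same libraries. Ropn1l was called lower on 0 UMIs against 7, a log2 difference of -1.96 or further at the floor of 3 UMIs (adjusted p = 0.00400). Ccdc39 was called lower on 6 UMIs against 13 (log2 -1.90, SE 0.75, adjusted p = 0.0295), Tekt1 on 4 against 10 (log2 -2.11, SE 0.84, adjusted p = 0.0295) and Odf3b on 5 against 12 (log2 -2.01, SE 0.77, adjusted p = 0.0230). Each of these 5 lost its call under at least 1 alternative, and all 5 without tdTomato-negative library 2, with adjusted p between 0.191 and 0.720.

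Genes that work beside the module followed it to different degrees, from lists chosen with results of these data known. Of the 20 axonemal dynein chain genes, 18 were tested between classes and 18 were called higher in ependymal-like than in astrocyte-like cells, with a fitted median log2 fold change of 5.22, against 5.17 for the 41 tested members (5.23 with genes at 0 UMIs set to their bound) and 0.09 for all genes tested. Of the 26 genes of intraflagellar transport and the BBSome, which also serve the primary cilia of other cells, 19 were tested and 14 were called higher, with a median of 2.20. Over all genes tested in that comparison, 18.1% were called higher and 11% lower. Foxj1, one of the multiciliation regulators, and Dynlrb2, from the dynein chain list, were left out between classes because they were clustering markers, not for low counts. Of the 13 multiciliation regulators, 6 were tested, of which 4 were called higher and 1, E2f5, lower. The higher ones include Rfx3, an X-box binding factor, at a log2 fold change of 1.36 (SE 0.45, edgeR adjusted p = 0.0114), and Rfx2 at 3.67 (SE 1.04, adjusted p = 0.00234). Rfx4, of the same family, was not called, at -0.54 (SE 0.43, adjusted p = 0.388). E2f5 was at -2.07 (SE 0.75, adjusted p = 0.0238). Within ependymal-like cells, 0 genes of these 3 lists were called between the gates, where 0.293% of all genes were called.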

How the data were processed

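The authors deposited raw UMI counts per gene and barcode as whole numbers, 1 matrix per library, not normalised. The submitters' processing notes name mm10, GRCm38.p5, Cell Ranger, Seurat 1.4.0.15 and STAR, with no roles; the rule that called barcodes is not given in the sources used. Barcodes under 300 genes or over 25% mitochondrial UMIs were dropped, and the rest scaled to 10000, log-transformed (pseudocount 1) and clustered (scanpy 1.11.5, 1000 variable genes, 20 components, 15 neighbours, Leiden resolution 1.0) on genes with an even last ID digit plus markers, without the members. No doublets were removed beyond the sort's own gate against them, per the labels. Sums per library, or per library and class with at least 10 cells, were tested with edgeR 4.0.16 (quasi-likelihood, TMM, filterByExpr, Benjamini-Hochberg at 0.05 over all genes tested; library as a block between classes, since classes of 1 library come from the same cells' preparation). Shares carry exact Clopper-Pearson and levels exact Poisson intervals (95%). Named with full values were the highest and lowest gene of each structure, the 6 with the smallest ratio to another class and every gene called in the comparison of transit-amplifying-like with astrocyte-like cells; Hydin, Rsph4a, Cfap44, Lrrc23, Mlf1 and a few others were added after their values were seen. Members and lists were chosen with earlier results of these data known. The fits were tested on simulated data.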

Additional observations from a re-analysis of the deposited data

How the results depend on the processing

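The alternatives were RLE scaling, no count filter, DESeq2 and a stricter cell filter (at least 500 genes, at most 10% mitochondrial UMIs). Further ones were clustering on genes with odd digits, resolutions 0.5 and 2.0, leaving out each library and dropping the library block. Of 125 values of the main results, 107 stayed within their limits, among them counts of 0 that stayed at 0. Direction was followed only for the genes with the smallest class ratios and those called between transit-amplifying-like and astrocyte-like cells. None of these was reversed. The members' median between gates over all cells was 3.43 to 3.70 with a tdTomato-negative library left out. Within ependymal-like cells their median, near 0, changed sign with the setting and was -0.0274 with RLE scaling, 0.10 without a count filter, 0.0104 with DESeq2, 0.0352 under the stricter cell filter and -0.0708 to -0.0692 with a tdTomato-negative library left out; those fits of 1 library against 1 are values with no test. Against neuroblast-like cells 26 to 41 members were called higher with a library left out (26 of 30 tested without tdTomato-negative library 2, which left fewer genes to test). Between transit-amplifying-like and astrocyte-like cells, 1 member was called higher with DESeq2, under the stricter cell filter and, 1 to 1, with each library left out. For the lower calls the counts were 2 without a count filter, 2 for cells under the stricter limits, 3 when clustering used odd digits and 1 to 4 with a library left out; the cause was not tested. Over all genes, DESeq2 called 1908 between the gates, against 4577 with edgeR. RLE scaling shifted the median of all genes between transit-amplifying-like and astrocyte-like cells to -0.16, against -0.05. No paired analysis was possible because the gates share only 1 replicate number; between classes, without the library as a replicate block, the counts were again 41 and 0 in the 3 ependymal-like comparisons and 2 higher and 5 lower in the last. The 12 ependymal-like cells of tdTomato-negative library 1 limit the gate comparison, and counts of 3 UMIs or fewer limit most values outside ependymal-like cells.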
